A study of Mus musculus with 7 samples.

Results

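The genes described here are 9 interferon response genes, *Ifit1*, *Ifit3*, *Isg15*, *Irf7*, *Irf9*, *Oasl2*, *Usp18*, *Bst2* and *Ifitm3*, chosen by name from the 38124 genes of a count table of embryonic mouse neocortex. All 9 were found in the table by their Ensembl identifiers, and all 7 libraries of the series were used. The libraries were made from sorted cells of heterozygous *Tis21*-CreERT2 embryos, in which CreERT2 stands in place of an exon of *Tis21* (*Btg2*), a gene expressed in apical progenitors that produce basal progenitors (BPs) and in the BPs themselves. The mothers of both groups received tamoxifen, which activates the recombinase, and the neocortex was electroporated in utero at E13.5. The control construct carries a floxed membrane GFP followed by nuclear RFP, and the conditional Sox9 expression construct adds Sox9 to the part that Cre turns on. At E15.5, which is 48 hr later, cells with high RFP fluorescence were sorted, from pooled cortices of several embryos according to the methods. There were 3 control libraries, numbered 1, 2 and 4 in their titles, and 4 libraries labelled Sox9, numbered 1 to 4. Every library received plasmid DNA, so the comparison contrasts the constructs, and no cells without plasmid are among the libraries used here.

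Type I interferons are secreted when nucleic acid sensors such as cGAS or RIG-I meet DNA or RNA where it should not be. They bind the receptor of IFNAR1 and IFNAR2, whose kinases JAK1 and TYK2 pass the signal on to ISGF3. This factor contains IRF9 and binds the interferon-stimulated response element (ISRE) in the promoters of interferon-stimulated genes (ISGs). In the healthy embryonic neocortex these genes are known mostly at low levels.

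The promoter letters of 4 of the 9 genes are shown because they hold the core of this element, taken as GAAA, any 2 bases and GAAA again on either strand. The windows came from RefSeq on GRCm38.p6 and ran from 250 bases before to 50 bases after each annotated start. *Usp18* had no window and is named only, *Irf9* had 2, and the 9 windows thus cover 8 of the genes. Capitals mark the letters of the core, and each stretch ends upstream of the start.

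*Ifit1*, chr19:34640770-34640828, plus strand: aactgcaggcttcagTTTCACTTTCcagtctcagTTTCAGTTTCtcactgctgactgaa

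*Ifit3*, chr19:34583358-34583431, plus strand: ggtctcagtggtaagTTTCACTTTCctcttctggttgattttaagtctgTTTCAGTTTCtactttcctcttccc

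*Isg15*, chr4:156200860-156200911, minus strand: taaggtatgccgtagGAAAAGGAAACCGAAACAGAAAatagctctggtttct

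*Bst2*, chr8:71537572-71537617, minus strand: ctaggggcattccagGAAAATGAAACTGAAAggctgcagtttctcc

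In these stretches *Ifit1* and *Ifit3* held a pair of separate cores, whereas in *Isg15* and *Bst2* the copies overlapped in 1 run. *Ifitm3* held the letters only after its start, and *Irf7*, *Irf9* and *Oasl2* held none in their windows. Thus 5 of the 9 windows matched, against 3.44% of all 32851 promoter windows. The gamma-activated sequence motif, TTCNNNGAA, was found in 2 of the 9, those of *Bst2* and *Ifitm3*, where it overlapped the ISRE letters, against 8.3% of all windows. A match describes the letters and does not show binding.

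The libraries held between 4429704 and 12907778 counts, so that 3 counts, taken here as the detection floor, stood for 0.261–0.305 CPM (counts scaled to library size) in the controls and 0.283–0.629 CPM in the libraries labelled Sox9. The library sizes were those of the trimmed mean of M-values (TMM) method. *Sox9* mRNA itself was not raised under the Sox9 label (63.9 ± 27.5 CPM, SD, n = 3, in control against 40.0 ± 8.33, n = 4), so the groups are named here by their labels. Summed markers of neurons were high in every library (12800–17400 CPM), while summed radial glia markers stood at 551–1070 CPM in control and 263–403 CPM in the libraries labelled Sox9, with 4 of 8 lower in the test. Summed intermediate progenitor markers stood at 213–246 and 128–159 CPM, with 2 of 6 lower. More genes had at least 1 count in the libraries labelled Sox9 (63.5–71.8% of the table) than in control (61.3–62.4%). Chemoreceptor genes, which cortex is not known to use, summed to 342–481 CPM against 113–155 CPM. What part this shift at low counts has in the results below was not tested. In bulk samples such as these, fewer cells of a type and less RNA per cell cannot be told apart.

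The 9 genes did not move together. *Usp18* and *Oasl2* were higher in the libraries labelled Sox9. *Ifit3*, with at most 11 counts in any library, was counted in these 4 libraries and in no control. *Ifit1* and *Irf9* had higher means without passing the test. The 4 other genes also had at most 11 counts in any library, with overlapping groups. Of these, *Isg15*, *Irf7* and *Ifitm3* had lower means in the libraries labelled Sox9 and *Bst2* a similar one. Of the 9, 4 passed the filter on low counts (*Usp18*, *Oasl2*, *Irf9* and *Ifit1*), of which 2 were called higher and 0 lower with edgeR's quasi-likelihood test at an adjusted p under 0.01. All but *Irf9* passed the filter only through the libraries labelled Sox9, so the count of calls among them supports nothing about the 9 genes. Among all 14267 protein-coding genes tested, 9.96% were called higher and 3.88% lower. Since the share called higher was 26.1% among genes with an average log2 CPM between 1 and 2, where *Usp18* and *Oasl2* lie, 2 calls say little about interferon response genes as a group. At an adjusted p under 0.05 it was the same 2 genes, against 18.6% of all called higher and 12.2% lower. Many of the 63 values were small, with 11 at 0 and 18 at 3 counts or fewer.

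**Figure D1:**
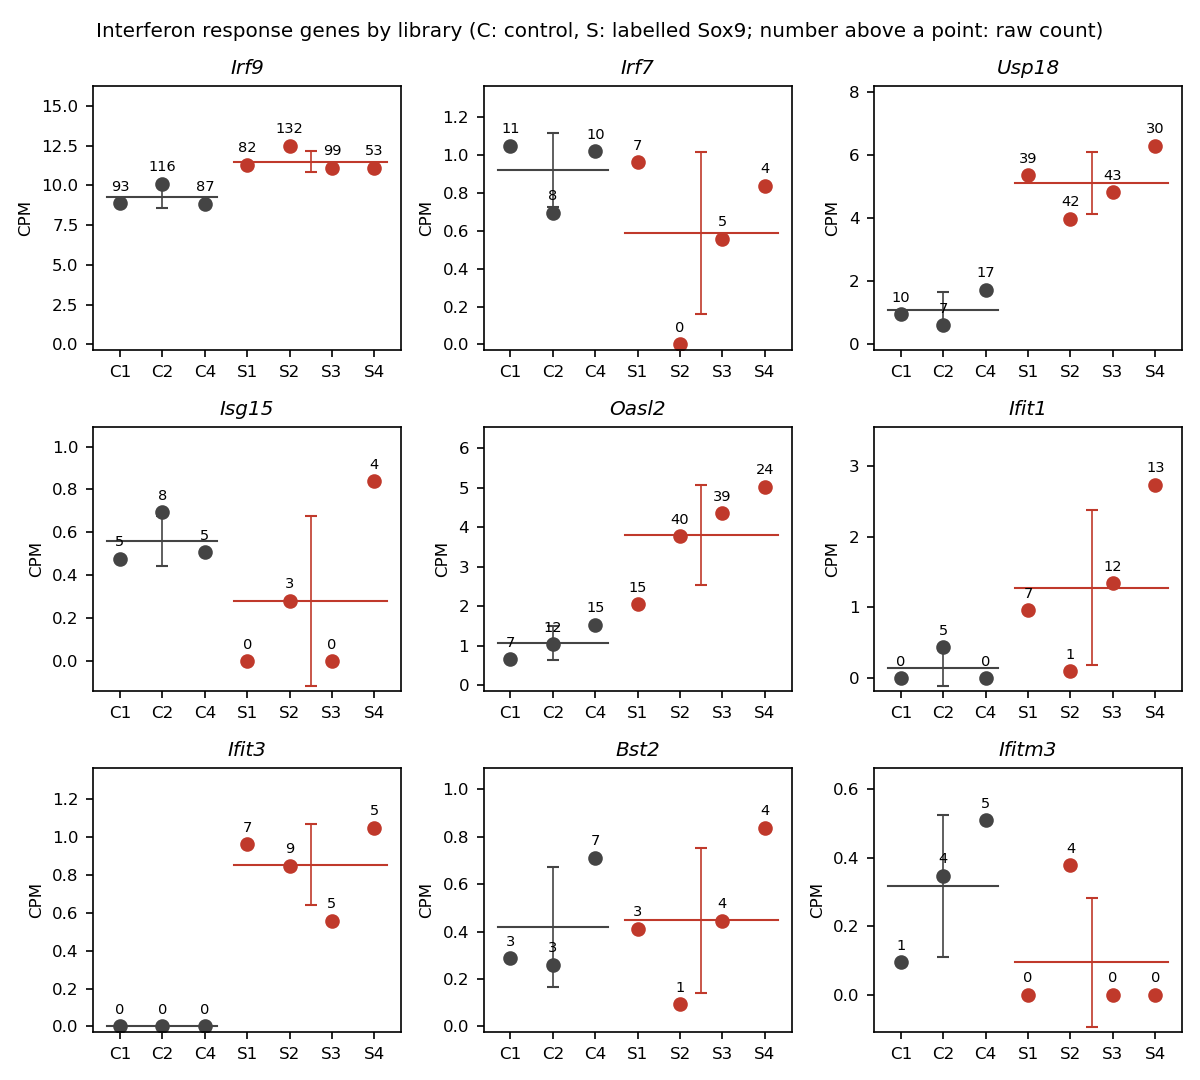
Normalised level (CPM, linear axis) of each of the 9 genes in every library, with 1 panel and 1 scale per gene, the raw count beside each point, and a line for the mean with a bar for the SD of 3 control libraries and 4 libraries labelled Sox9. The groups stand apart for *Usp18*, *Oasl2*, *Ifit3* and *Irf9*, and overlap for *Ifit1*, *Isg15*, *Irf7*, *Bst2* and *Ifitm3*.

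Of the transcription factors, *Irf9* encodes the DNA-binding subunit of ISGF3 and lies at chr14:55603571-55610030 on the plus strand. It was the best measured of the 9 genes, the only one with at least 10 counts in every library, with 93, 116 and 87 counts in the control libraries against 82, 132, 99 and 53 in those labelled Sox9. Scaled to library size, this gave 8.89, 10.1 and 8.85 CPM in the control libraries against 11.3, 12.5, 11.1 and 11.1 CPM in those labelled Sox9. All 4 libraries labelled Sox9 were above all 3 controls, but by little. The means were 9.27 ± 0.699 and 11.5 ± 0.668 CPM, the log2 fold change was 0.31 with a standard error (SE) of 0.21, and the adjusted p-value was 0.278 (edgeR). Groups that did not overlap in this direction were seen in 19.8% of protein-coding genes tested, and in 21.3% of those with an average log2 CPM between 2 and 4, as *Irf9* has. The annotated *Irf9* shares 123 exonic bases with *Rnf31* on the same strand, so a part of its reads cannot be assigned with certainty.

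*Irf7*, at chr7:141262706-141266481 on the minus strand, encodes a factor that interferon induces and that amplifies interferon transcription. It was counted 11, 8 and 10 times in the control libraries, against 7, 0, 5 and 4 times in those labelled Sox9. The levels were 0.921 ± 0.197 and 0.590 ± 0.428 CPM, and the groups overlapped. *Irf7* did not pass the filter, and a fit without the filter gave a log2 fold change of -0.83 (SE 0.69, edgeR adjusted p = 0.405). It shares 45 exonic bases with *Phrf1* on the opposite strand, and the library kit is not stated to keep strand.

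*Isg15*, at chr4:156199424-156200818 on the minus strand, encodes the ubiquitin-like modifier that ISG conjugation enzymes attach to proteins. It was counted 5, 8 and 5 times in the control libraries, against 0, 3, 0 and 4 times in those labelled Sox9. Its mean level was thus lower in the latter, 0.281 ± 0.395 CPM against 0.561 ± 0.118, with 1 library labelled Sox9 (replicate 4, 0.839 CPM) above all controls. The gene did not pass the filter, and without it the log2 fold change was -1.29 (SE 0.90, edgeR adjusted p = 0.315).

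*Usp18*, at chr6:121245906-121270917 on the plus strand, encodes the protease that removes ISG15 from proteins and also restrains signaling at the receptor. It was counted 10, 7 and 17 times in the control libraries, against 39, 42, 43 and 30 times in those labelled Sox9, although all but replicate 2 of the latter were shallower than every control. The levels were 0.956, 0.608 and 1.73 CPM in the control libraries against 5.36, 3.97, 4.81 and 6.29 CPM in those labelled Sox9. The lowest library labelled Sox9 was above the highest control, as for 46.7% of genes with an average log2 CPM between 1 and 2, and the means were 1.10 ± 0.574 and 5.11 ± 0.975 CPM. Of the 2 genes called after the filter, *Usp18* had the larger change, with a log2 fold change of 2.21 (SE 0.43, adjusted p = 0.00224, edgeR). Without control replicate 2 the adjusted p-value was 0.0103, which is no longer a call, and without any other single library it was 0.00213–0.00832. Under cyclic loess normalization, which levels out differences that depend on expression level, the log2 fold change was 1.34 (limma adjusted p = 0.0244). With limma on log2 FPKM it was 1.18–2.25, depending on the pseudocount, and was not called (adjusted p = 0.025–0.0283). The annotated noncoding gene *Gm44148* overlaps *Usp18* on the other strand over 15715 bases, 124 of them exonic in both, so its reads cannot be told apart where strand is not kept.

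Of the effectors, *Oasl2*, at chr5:114896936-114912234 on the plus strand, encodes an oligoadenylate synthetase-like protein of the antiviral response. It was counted 7, 12 and 15 times in the control libraries, against 15, 40, 39 and 24 times in those labelled Sox9. In CPM these were 0.669, 1.04 and 1.53 in the control libraries against 2.06, 3.78, 4.36 and 5.03 in those labelled Sox9. The groups did not overlap, although the gap between the highest control and the lowest library labelled Sox9 was small beside the spread within the latter. The means were 1.08 ± 0.430 and 3.81 ± 1.27 CPM, with a log2 fold change of 1.80 (SE 0.45, adjusted p = 0.00908, edgeR). The call rested on each library but 1: without Sox9 replicate 1 the adjusted p-value was 0.00697, and it was 0.0352, 0.0309 and 0.0116 without control replicates 1, 2 and 4, and 0.0185, 0.0263 and 0.0188 without Sox9 replicates 2, 3 and 4. Under cyclic loess normalization the log2 fold change was 0.76 (limma adjusted p = 0.247), and with limma on log2 FPKM it was 1.13–1.88 (adjusted p = 0.0435–0.0525).

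**Figure D2:**
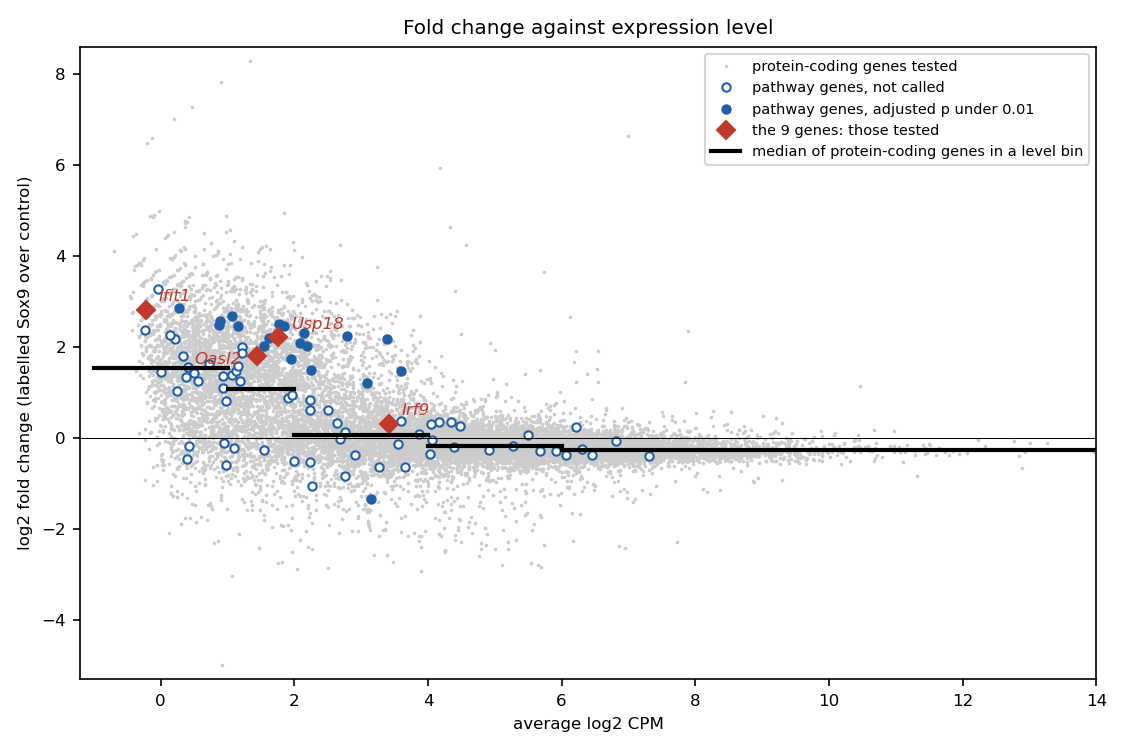
Log2 fold change (libraries labelled Sox9 against control, y axis) by average log2 CPM (x axis) for the 14267 protein-coding genes tested (grey points), with black lines for their median in each of 5 ranges of level, blue circles for the 82 tested genes of the pathway lists (filled where called) and red diamonds for the 4 tested of the 9 genes. *Usp18* and *Oasl2* lie at an average log2 CPM below 2, where the median of all genes is itself above 0, and *Irf9* at 3.42 lies close to the median of its range.

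*Ifit1* and *Ifit3* lie close together on chromosome 19, *Ifit3* at chr19:34583531-34588731 and *Ifit1* at chr19:34640871-34650009, both on the plus strand, and encode proteins with tetratricopeptide repeats that act against viral RNA. *Ifit3* had 0 counts in each of the 3 controls, whereas the libraries labelled Sox9 held 7, 9, 5 and 5 counts. The mean in the latter was 0.855 ± 0.213 CPM, at least 3.01-fold higher than a control floor of 3 counts per library (0.284 CPM). *Ifit3* was too low to pass the filter. A fit without the filter called it higher (edgeR adjusted p = 0.000426), where 9.58% of 20205 protein-coding genes were called higher and 6.97% lower. With limma on log2(FPKM + 0.1) it was not called (log2 fold change 1.45, adjusted p = 0.0153), and with a pseudocount of 0.01 it was (4.18, adjusted p = 0.00363). No count in any control and at least 1 in every library labelled Sox9 was a pattern shared by 126 of those genes, or 0.624%. Those genes span all levels, and the share among genes counted as rarely as *Ifit3* was not worked out. Its near-identical neighbor *Ifit3b* was counted 0, 0 and 0 times in the control libraries, against 0, 1, 4 and 1 times in those labelled Sox9, so that neither copy had a count in any control, and how reads were split between the copies is not known.

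*Ifit1* was counted 0, 5 and 0 times in the control libraries, against 7, 1, 12 and 13 times in those labelled Sox9. In CPM these were 0, 0.434 and 0 against 0.961, 0.0945, 1.34 and 2.73, so that Sox9 replicate 2 was below control replicate 2 and the groups overlapped. The means were 0.145 ± 0.251 and 1.28 ± 1.10 CPM, with a log2 fold change of 2.82 (SE 1.04, adjusted p = 0.0503, edgeR). A fit without the filter called *Ifit1* higher (log2 fold change 2.74, edgeR adjusted p = 0.00843). Without control replicate 2, the only control with a count, the fitted log2 fold change was 6.37 (adjusted p = 0.0215), and under cyclic loess normalization it was 0.04 (limma adjusted p = 0.981).

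Their relative *Ifit2* moved the other way and was far better counted. It was counted 157, 131 and 121 times in the control libraries, against 51, 55, 43 and 14 times in those labelled Sox9. The levels fell from 12.9 ± 1.88 to 4.99 ± 1.67 CPM, without overlap, as in 18.4% of protein-coding genes tested, and *Ifit2* was called lower (log2 fold change -1.35, SE 0.28, adjusted p = 0.00321, edgeR). The adjusted p-value was 0.0121 without control replicate 1 and 0.0122 without Sox9 replicate 3, both past the threshold of 0.01, and 0.00313–0.00873 without any other single library.

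*Bst2*, at chr8:71534255-71537456 on the minus strand, encodes tetherin, which holds budding virus at the cell surface. It was counted 3, 3 and 7 times in the control libraries, against 3, 1, 4 and 4 times in those labelled Sox9, with means of 0.420 ± 0.253 and 0.448 ± 0.305 CPM. *Ifitm3*, at chr7:141009586-141010770 on the minus strand, encodes a membrane protein that hinders viral entry. It was counted 1, 4 and 5 times in the control libraries, against 0, 4, 0 and 0 times in those labelled Sox9, with means of 0.317 ± 0.208 and 0.0945 ± 0.189 CPM. Neither gene passed the filter, and in both the groups overlapped. Without the filter the log2 fold changes were -0.11 (SE 0.86, edgeR adjusted p = 0.949) for *Bst2* and -1.40 (SE 1.12, edgeR adjusted p = 0.379) for *Ifitm3*, whose SEs do not separate a fall from a rise at this depth. Of the near relatives, *Ifitm2* was well counted with 56.4 CPM in control and 46.0 CPM in the libraries labelled Sox9 (log2 fold change -0.29, SE 0.19, edgeR adjusted p = 0.244), and *Ifitm1* had 1, 0 and 0 against 1, 3, 2 and 1 counts.

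Levels were compared between genes as CPM per kilobase of exon, because the deposited FPKM of these 9 genes were scaled by their whole span. For *Usp18*, for instance, the length that links its counts to its FPKM was 25.0 kb, equal to its span, while its exons cover 2.79 kb. In control, *Irf9* was highest with 1.72 ± 0.13 CPM per exonic kb, at the 60.4th percentile of protein-coding genes, and its range did not overlap that of *Isg15*, next with 0.741. Below these stood *Ifitm3* (0.468), *Bst2* (0.465), *Usp18* (0.393), *Irf7* (0.244), *Oasl2* (0.169), *Ifit1* (0.0545) and *Ifit3* (0), and no neighbors in this order were separated beyond their ranges. In the libraries labelled Sox9 the order was *Irf9* (2.13 ± 0.124 CPM per exonic kb), *Usp18* (1.83 ± 0.349), *Oasl2* (0.597 ± 0.2), *Bst2* (0.496), *Ifit3* (0.490), *Ifit1* (0.482), *Isg15* (0.371), *Irf7* (0.156) and *Ifitm3* (0.139). Here *Irf9* and *Usp18* overlapped, *Usp18* stood above *Oasl2* without overlap, and no later neighbors were separated.

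**Figure D3:**
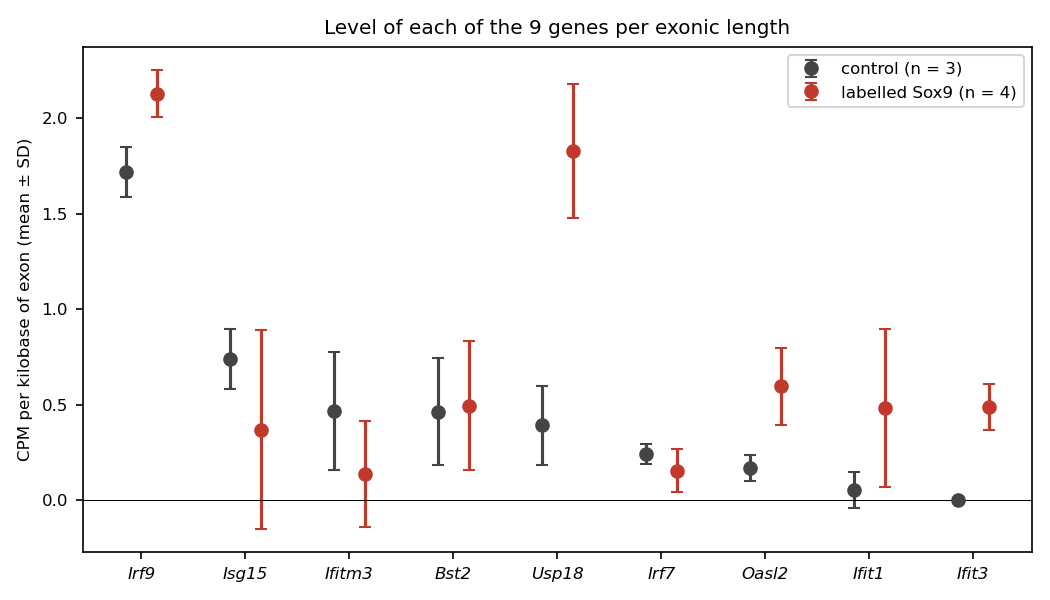
Level of each of the 9 genes in CPM per kilobase of exon (y axis, linear), ordered by their control level, with the mean as a point and the SD as a bar for 3 control libraries (grey) and 4 libraries labelled Sox9 (red). The lower ends of some bars fall below 0 because SD is drawn on both sides. *Irf9* leads in both groups, and *Usp18* stands next to it only in the libraries labelled Sox9.

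Summed over the 9 genes, the levels were 12.4, 14.2 and 14.9 CPM in the control libraries against 22.0, 21.9, 23.1 and 28.7 CPM in those labelled Sox9. *Irf9* made up most of the control sum. Without it, the sums were 3.54, 4.08 and 6.0 CPM against 10.7, 9.45, 12.1 and 17.6 CPM, a ratio of means of 2.74 beside 3.02 for the summed chemoreceptor genes. To the former, *Usp18* and *Oasl2* gave the largest shares.

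For each of the 4 tested genes, the genes with the most similar profile were sought among 13693 protein-coding genes with a mean of at least 1 CPM, as the root mean square difference of centered log2 CPM over the 7 libraries. *Usp18* was most like *Lrrc31* (0.134) and *P4ha3* (0.156), against a median of 1.17 over all genes. For *Oasl2* these were *Arhgef6* (0.201) and *Slc35d2* (0.213), for *Irf9* *Fstl5* (0.045) and *Polr2l* (0.0658), and for *Ifit1* *Rab42* (0.349) and *Marveld3* (0.451). None of these 8 genes is in the interferon pathway lists used here. Only 82 genes of those lists were tested, few beside the 13693 searched, so this absence says little.

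The rest of the pathway was read from lists of 133 genes, of which 129 were in the count table and 82 were tested. Of these 82, 18 were called higher and 1 lower. Their log2 fold changes had a median of 0.82, against -0.06 for all protein-coding genes tested. The latter stood at higher levels, with a median average log2 CPM of 3.87 against 2.11. Below an average log2 CPM of 1 the pathway median was 1.44 against 1.53 for all. Between 1 and 2 these medians were 1.66 against 1.08, and between 2 and 4 they were 0.35 against 0.07. Between 4 and 6 they were -0.11 against -0.17, and above 6 they were -0.31 against -0.26. The calls were uneven by level. All 18 genes called higher had an average log2 CPM below 4, where the share of all protein-coding genes called higher was also greatest. Between 1 and 2, 7 of 18 pathway genes (38.9%) were called higher against 26.1% of all, between 2 and 4 it was 8 of 24 (33.3%) against 12.3%, and below 1 it was 3 of 22 (13.6%) against 21.6%. Above 4, 0 of 18 pathway genes were called higher, where the background was 1.18% up to 6 and 0.544% beyond. With cyclic loess normalization the pathway median was 0.14 and 4 genes, *Rigi*, *Irf8*, *Ifi44* and *Rnf213*, were called higher (limma), where 2.21% of all protein-coding genes were. Some of the 82 genes, such as *Uba7* and *Ptpn6*, passed the filter on low counts only through the libraries labelled Sox9. The count of calls thus supports nothing about the pathway as a whole. Lists were described and not tested.

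Upstream of interferon, 2 of 12 tested sensing genes were called higher and 0 lower, at a median average log2 CPM of 2.12, where 12.3% of all protein-coding genes (those between 2 and 4) were called higher and 2.91% lower. *Rigi*, the RNA sensor RIG-I, was counted 63, 47 and 77 times in the control libraries, against 125, 130, 176 and 83 times in those labelled Sox9, with levels of 5.98 ± 1.87 and 16.6 ± 3.11 CPM and a log2 fold change of 1.48 (SE 0.27, edgeR adjusted p = 0.00159). *Ifih1*, the RNA sensor MDA5, went from 0.967 ± 0.433 to 4.46 ± 1.74 CPM (log2 fold change 2.19, SE 0.46, edgeR adjusted p = 0.00371), and was not called without control replicate 1 (adjusted p = 0.0143) or without Sox9 replicate 3 (0.0144). *Cgas*, the sensor of cytosolic DNA, had 11, 13 and 2 counts in control against 35, 25, 29 and 12 and missed the threshold (log2 fold change 1.99, SE 0.53, edgeR adjusted p = 0.0119). It was called higher by DESeq2 (adjusted p = 0.0051) and without a filter (edgeR adjusted p = 0.00266), and was at 0.248 with cyclic loess and limma. The downstream genes *Sting1* (1.09, SE 0.61, adjusted p = 0.189), *Tbk1* (-0.38, SE 0.13, adjusted p = 0.0355) and *Irf3* (-0.36, SE 0.20, adjusted p = 0.178) were not called in the same edgeR fit, although DESeq2 called *Tbk1* lower (-0.47, adjusted p = 0.00965). *Aim2*, another sensor of cytosolic DNA, picked out here after its values were seen, went from 6.36 ± 1.2 to 3.0 ± 0.82 CPM without overlap and was not called (-1.07, SE 0.32, edgeR adjusted p = 0.0219), but was called lower without a filter (adjusted p = 0.00987).

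Interferon ligands were near the floor. Of 20 listed, 16 were in the table, none passed the filter and 5 had no count in any library. All ligand genes summed to 10, 6 and 13 counts in the control libraries against 28, 24, 49 and 9 in those labelled Sox9. Scaled to library size, these sums were 0.521–1.32 CPM in control and 1.89–5.48 CPM under the Sox9 label, so that every library labelled Sox9 was above every control, as was the case for the summed chemoreceptor genes. *Ifnb1*, interferon beta, had 1, 0 and 2 counts against 5, 3, 7 and 1. Its levels of 0.0997 ± 0.102 and 0.491 ± 0.286 CPM did not overlap, from counts at or near the floor. A fit without the filter did not call *Ifnb1* (log2 fold change 2.15, SE 1.08, edgeR adjusted p = 0.137).

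None of 10 tested receptor and JAK-STAT genes was called. The median average log2 CPM of this list was 4.33, and between 4 and 6 only 1.18% of all protein-coding genes were called higher and 4.91% lower. The receptor subunit *Ifnar1* was well counted and stood at 67.0 CPM in control and 54.7 CPM in the libraries labelled Sox9 (log2 fold change -0.29, SE 0.13, edgeR adjusted p = 0.11). For *Ifnar2* the log2 fold change was 0.32 (SE 0.29), for *Jak1* 0.06 (SE 0.15), for *Tyk2* 0.26 (SE 0.20) and for *Stat2* -0.17 (SE 0.17), with edgeR adjusted p-values between 0.331 and 0.775. *Jak1* changed sign with DESeq2 and without a filter, and *Stat2* under cyclic loess. The smallest p-values of this list were those of *Ifngr2* (-0.37, SE 0.14, adjusted p = 0.0628) and *Il10rb* (1.33, SE 0.53, adjusted p = 0.067), the latter falling to -0.25 under cyclic loess.

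**Figure D4:**
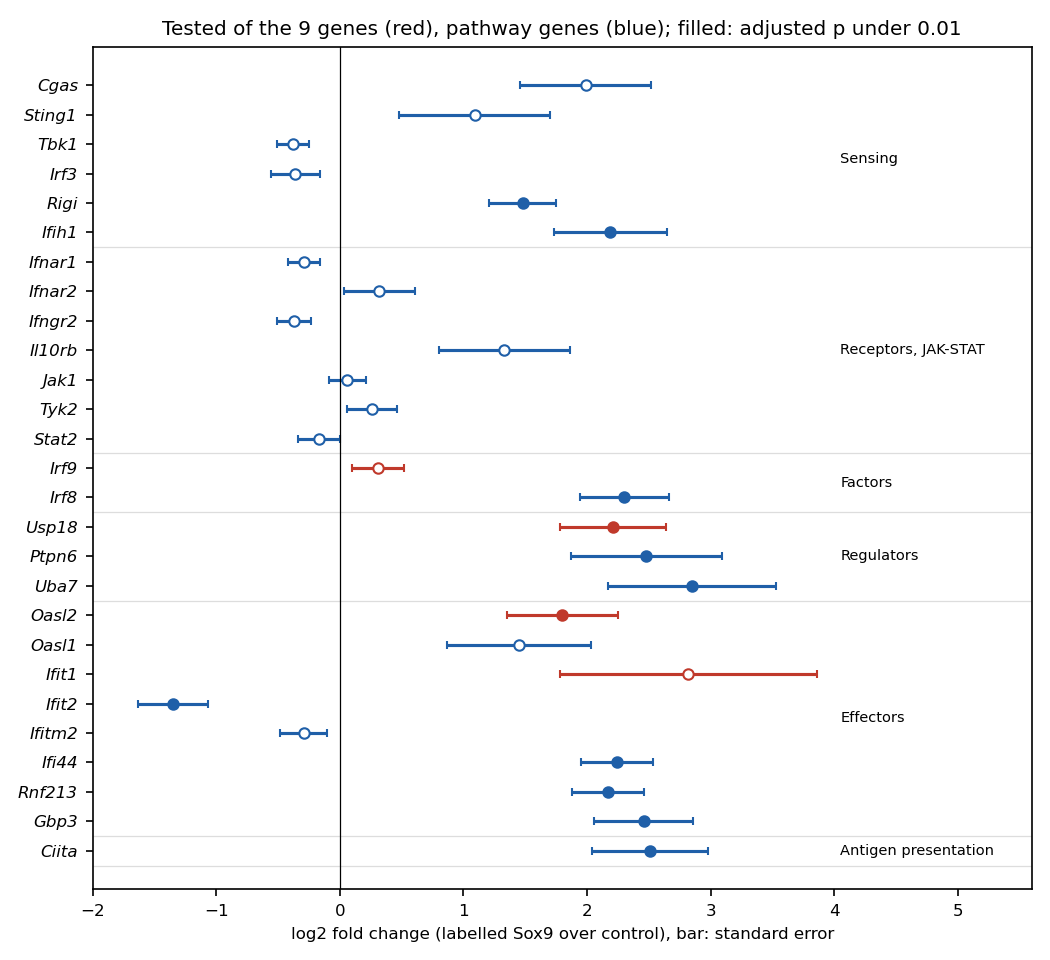
Log2 fold change (x axis, libraries labelled Sox9 against control, bars of 1 SE) of the 4 tested of the 9 genes (red) and of the other named pathway genes that were tested (blue), by role (y axis), filled where edgeR's adjusted p was under 0.01. Of the receptor and JAK-STAT genes drawn none is filled, the filled effectors other than *Ifit2* lie at 1.80 or above, and *Ifit2* is the only gene drawn that was called lower.

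The next 3 lists are short, and each held 1 called gene, against 12.3% of all protein-coding genes called higher at the level of *Irf8* (average log2 CPM between 2 and 4) and 21.6% at that of *Ptpn6* and *Uba7* (below 1). Among 3 other tested IRF factors, *Irf8* was called higher, from 1.34 ± 0.341 to 6.60 ± 1.34 CPM (log2 fold change 2.30, SE 0.36, edgeR adjusted p = 0.00065). *Irf8* is best known as a factor of myeloid cells, microglia included. Among 4 tested negative regulators, the phosphatase gene *Ptpn6*, strongest in blood cells, was called (2.48, SE 0.61, edgeR adjusted p = 0.00828). When 1 library was left out, *Ptpn6* stayed called only without Sox9 replicate 4 (0.00752) or control replicate 2 (0.00404). Without another single library its adjusted p-value was 0.0139–0.0282. It was called by DESeq2 (adjusted p = 0.0032) and without a filter (edgeR adjusted p = 0.00072), but not under cyclic loess (limma adjusted p = 0.216). Among 3 tested genes of ISG15 conjugation, the activating enzyme *Uba7* was called (2.85, SE 0.68, edgeR adjusted p = 0.00703), with 3, 3 and 1 counts in the control libraries against 5, 17, 28 and 5 in those labelled Sox9. It stayed called without Sox9 replicate 1 (adjusted p = 0.00487), was not called without control replicates 1, 2 and 4 (0.0194, 0.0245 and 0.0286), and did not pass the filter without Sox9 replicate 2, 3 or 4.

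The other ISGs made up 41 of the 82 tested pathway genes. Of 56 listed, 41 were tested, 12 were called higher and 1, *Ifit2*, lower. The share called higher among all protein-coding genes was 9.96%, but 26.1% at an average log2 CPM between 1 and 2, where the median of this list lies (1.84). The median log2 fold change was 1.38, and 36 of 41 genes were above 0. In that range of level, 78.7% of the whole protein-coding set also lay above 0, with a median of 1.08. Below 1 the share was 88.1% (median 1.53), and between 2 and 4 it was 55.1% (median 0.07). The list was not matched to these levels, so its count above 0 says little by itself. Under cyclic loess the list median was 0.27. The smallest p-values were those of *Ifi44*, *Rnf213* and *Gbp3*. *Ifi44*, of unsettled function, was counted 23, 24 and 23 times in the control libraries, against 72, 88, 101 and 60 times in those labelled Sox9, with levels of 2.21 ± 0.127 and 10.5 ± 1.84 CPM (log2 fold change 2.24, SE 0.29, edgeR adjusted p = 0.000213). The large E3 ligase gene *Rnf213* rose from 3.48 ± 1.14 to 15.8 ± 3.19 CPM (2.17, SE 0.29, edgeR adjusted p = 0.000226), and the guanylate-binding protein gene *Gbp3* from 0.989 ± 0.268 to 5.51 ± 1.28 CPM (2.46, SE 0.40, edgeR adjusted p = 0.000826). *Oasl1*, the closest relative of *Oasl2*, was not called (1.45, SE 0.58, edgeR adjusted p = 0.0685) and fell to -0.42 under cyclic loess. ISRE letters were found in 23 of 61 promoter windows of these other ISGs, or 37.7%. Of 9 tested genes of antigen presentation, 1 was called higher, *Ciita*, the master factor of MHC class II (2.51, SE 0.47, edgeR adjusted p = 0.00201), and the list median was -0.13. The median average log2 CPM of this list was 1.77, where 26.1% of all protein-coding genes (those between 1 and 2) were called higher.

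Summed markers of other cell types also stood at other levels in the libraries labelled Sox9, though few single markers were called, and below an average log2 CPM of 2, where many of them lie, 21.6–26.1% of all protein-coding genes were called higher. Endothelial markers summed to 6.98–14.7 CPM in control and 21.4–52.1 CPM in the libraries labelled Sox9 with 2 of 8 tested higher and *Ly6c1* at 0 in every control, mural and meningeal markers to 9.46–11.8 and 18.6–37.4 CPM with 2 of 8, erythroid markers to 2.2–24.9 and 15.0–94.8 CPM with 1 of 6 and overlapping sums, and choroid plexus markers to 1.24–1.56 and 9.17–14.1 CPM with 2 of 3. Microglial markers summed to 18.8–59.4 and 29.8–99.7 CPM, which overlap, with 1 of 14 higher, *C1qa*. Of these 14 markers, 11 lay above 0 on the log2 scale, and the list median was 0.35. The median average log2 CPM of these markers was 1.39. Of all protein-coding genes between 1 and 2, 78.7% lay above 0, with a median log2 fold change of 1.08. No defining marker of microglia was at 0 throughout. The part of these cells in the levels of *Usp18*, *Oasl2*, *Ifit3* and *Irf8* was not tested.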

How the data were processed

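High RFP cells of 3 control libraries and 4 libraries labelled Sox9 were compared, grouped by sample titles. The labels call the libraries biological replicates. The genes and lists were chosen with earlier results of these data known. The authors primed cDNA with poly-dT, amplified it by PCR without molecular identifiers, trimmed reads with cutadapt and aligned them to mm10 (GRCm38) with STAR 2.5.2b. The deposited values are raw counts for each Ensembl gene and FPKM by the authors, and the program that counted reads is not given in the sources used here.

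Counts were tested with edgeR 4.0.16 (R 4.3.3): TMM scaling, filterByExpr, two-sided quasi-likelihood test, Benjamini-Hochberg adjustment over all 16522 genes tested, threshold 0.01 as in the study's methods. The SE is the log2 fold change over the square root of F. The fit was first tested on simulated counts. FPKM, used for alternatives only, were tested with limma 3.58.1 on log2(FPKM + 0.1). Further alternatives were DESeq2 1.42.0, DESeq2's size factors, cyclic loess, no filter on low counts, a minimum of 10 counts per library, an adjusted p threshold of 0.05, replicate blocks and leaving out each library.

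Positions are those of GENCODE annotation of GRCm38. Named were the 9 genes, central pathway genes and close paralogs, and from each list the genes called, or the 3 with the smallest p where over 3 were called, or the 2 with the smallest p where none was. Values of 1 of these genes are not reported here. Markers were named after their values were seen. Floors cover counting error only. Summaries and plots used Python 3.11.15, pandas 2.3.3 and matplotlib 3.10.9.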

Additional observations from a re-analysis of the deposited data

Results flagged for a closer look

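In groups of 4 libraries, the highest or lowest value was compared with the others by Dixon's criterion, for 35 groups in all, of which chance flags about 1 in 20. In all, 3 values stood apart, each among the libraries labelled Sox9. *Irf9* was at 12.5 CPM in replicate 2, above 11.1–11.3 CPM in the other replicates. *Ifitm3* was at 0.378 CPM in replicate 2, from 4 counts, with 0 counts in the others. Where 3 of 4 values are 0, any other value is flagged, so the rate of 1 in 20 does not hold there. *Ifih1* was at 7.04 CPM in replicate 3, above 3.31–3.77 CPM in the others.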

How the results depend on the processing

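The counts of called genes depended on the processing. Of the 9 genes, those called higher numbered 0 under cyclic loess, 4 without a filter, 0 with at least 10 counts in every library and 0–2 when single libraries were left out, and 0 were called lower under any of these. Of the pathway genes, those called higher numbered 4 under cyclic loess, 8 with at least 10 counts, 11–17 without single libraries and 31 at an adjusted p under 0.05, and those called lower 4 with DESeq2, 2 under cyclic loess, 3 without a filter, 0–1 without single libraries and 5 at an adjusted p under 0.05. Of all protein-coding genes, those called higher numbered 316 under cyclic loess, 549 with at least 10 counts, 677–1223 without single libraries and 2647 at an adjusted p under 0.05, and those called lower 1392 with DESeq2, 252 under cyclic loess, 1408 without a filter, 198 with at least 10 counts, 201–461 without single libraries and 1744 at an adjusted p under 0.05. The 4 of the 9 genes called higher without a filter stand beside 1936 of 20205 protein-coding genes (9.58%) called higher in that fit. Fewer genes are tested with at least 10 counts, and fewer libraries when 1 is left out. The cause of the other shifts was not tested.

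Deviations of same-numbered libraries correlated at -0.036, 0.118 and -0.005 by titles, or 0.017 for the last pair by descriptions. The value of 0.118 was above those of all pairs with different numbers, which reached at most 0.078. Values this low gave no clear sign of pairing, but they cannot exclude that same-numbered libraries were prepared together. With a replicate block, 0 (titles) or 1 (descriptions) of the 9 genes, 5 or 10 pathway genes and 340 or 842 of all were called higher, and 0 pathway genes (titles) and 213 or 343 of all were called lower.

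Signs changed in 10 cases: *Bst2* to 0.14 with 3 treatments of FPKM in limma and to 0.32 as a ratio of FPKM, *Il10rb* to -0.25, *Sting1* to -0.16, *Stat2* to 0.02 and *Oasl1* to -0.42 under cyclic loess, and *Jak1* to -0.02 with DESeq2 and without a filter. *Irf9* stayed between 0.22 and 0.53 in 18 alternatives and was called in 0. *Isg15*, *Irf7*, *Bst2* and *Ifitm3* were called under none of the alternatives that gave them a value, and their counts are too low for a small difference to be seen.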
